A study of Oryza sativa with 4 samples.

Results

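Rice beta-glucosidase genes of the bglu series were represented by 3 genes, Os3bglu7, Os3bglu8 and Os7bglu26, beside 2 regions enriched by OsMADS2 chromatin immunoprecipitation. They are all the genes whose symbol contains bglu in the authors' table of merged regions and nearby genes, which holds 2589 genes, 1442 regions and 2862 region-gene pairs. A gene enters that table by having a region called in each of 3 comparisons of immunoprecipitate with mock, and the members were thus chosen by the same peak calls that are described below. That they have a region is not a result. The 3 genes account for 3 region-gene pairs.

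The samples were young panicles of the wild-type rice line TP309, 0.3 to 2 cm long and also labelled as inflorescence meristem, and this holds for all 4 libraries. Chromatin was fixed with formaldehyde, cut by micrococcal nuclease and precipitated with an antibody against OsMADS2 or, as a mock, with rabbit IgG. OsMADS2 libraries 5 and 6 are called IP5 and IP6, and IgG libraries of the same numbers mock 5 and mock 6. The 2 numbers mark separate biological replicates, per the file headers. The 2 IP libraries held 9142837 and 15934402 uniquely mapped reads, and the 2 mock libraries 13248694 and 16742118. The 3 deposited peak lists set IP5 against mock 5 (written IP5/mock 5), IP5 against mock 6 (IP5/mock 6) and IP6 against mock 6 (IP6/mock 6). IP5 is used in 2 of them and mock 6 in 2 of them, so only IP5/mock 5 and IP6/mock 6 share no library.

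OsMADS2 belongs to the MADS-domain transcription factors and is a rice relative of PISTILLATA, which in grasses acts in the identity of lodicules and stamens. The bglu genes encode family GH1 glycoside hydrolases. These enzymes release a sugar from the non-reducing end of a glycoside or a short oligosaccharide, and in plants they are known to act on cell wall oligosaccharides and on stored glucosides of hormones, phenolics and defence compounds. Os3bglu7, also listed as BGlu1, encodes an enzyme known to hydrolyse cello-oligosaccharides. The enzyme of Os7bglu26 is known as a beta-mannosidase. No RNA was measured in these samples, so whether the genes were expressed is not shown, nor could the labelled tissue be checked by markers. A panicle holds many cell types. Strong binding in few cells and weak binding in many cannot be told apart.

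Both regions lay just inside the start of a gene, within its 5′ end. Os3bglu7 (Os03g0703000) occupies chromosome 3 from 28240368 to 28245227 on the minus strand, a length of 4860 bp. Its region runs from 28244762 to 28245190, which places it 37 to 465 bp inside the gene start, and it is 429 bp wide. Os7bglu26 (Os07g0656200) occupies chromosome 7 from 27615603 to 27618639 on the plus strand, a length of 3037 bp. Its region runs from 27615691 to 27616058, 88 to 455 bp inside the start, and is 368 bp wide. The midpoints fell 251 bp and 271.5 bp from the 2 gene starts, so the regions sat at nearly the same place on genes of different chromosomes. Coordinates are as the authors deposited them. No source used here names the genome build, and exons, introns and UTRs were not annotated.

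The table classes both as lying inside the gene, as it does 16.4% of all region-gene pairs. Among those inside pairs, 48.1% had a region edge within 100 bp of the gene start, so this placement is a common one for regions inside a gene. It accounts for 7.90% of all pairs in the table. Both regions were narrower than most. Of the other 1441 regions, 33.8% were narrower than that of Os3bglu7 and 23.7% narrower than that of Os7bglu26, against a median width of 553 bp.

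Os3bglu8 (Os03g0703100) shares the region of Os3bglu7 and has none of its own in the table. It occupies chromosome 3 from 28248757 to 28254013, a length of 5257 bp, on the same strand as Os3bglu7, with 3529 bp between its end and the start of Os3bglu7. The shared region lay 3566 bp downstream of the end of Os3bglu8, close to the largest distance in the table, 3999 bp. Downstream placement is found in 29.2% of all pairs, and of these 12.0% were more than 3500 bp apart. Os3bglu8 would not have been listed at a limit of 2 kb, nor if each region had been given only its nearest gene. The Os7bglu26 region was also assigned to 1 further gene, Os07g0656300, which lies 2955 bp away on the opposite strand and carries no symbol in the table.

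**Figure D1:**
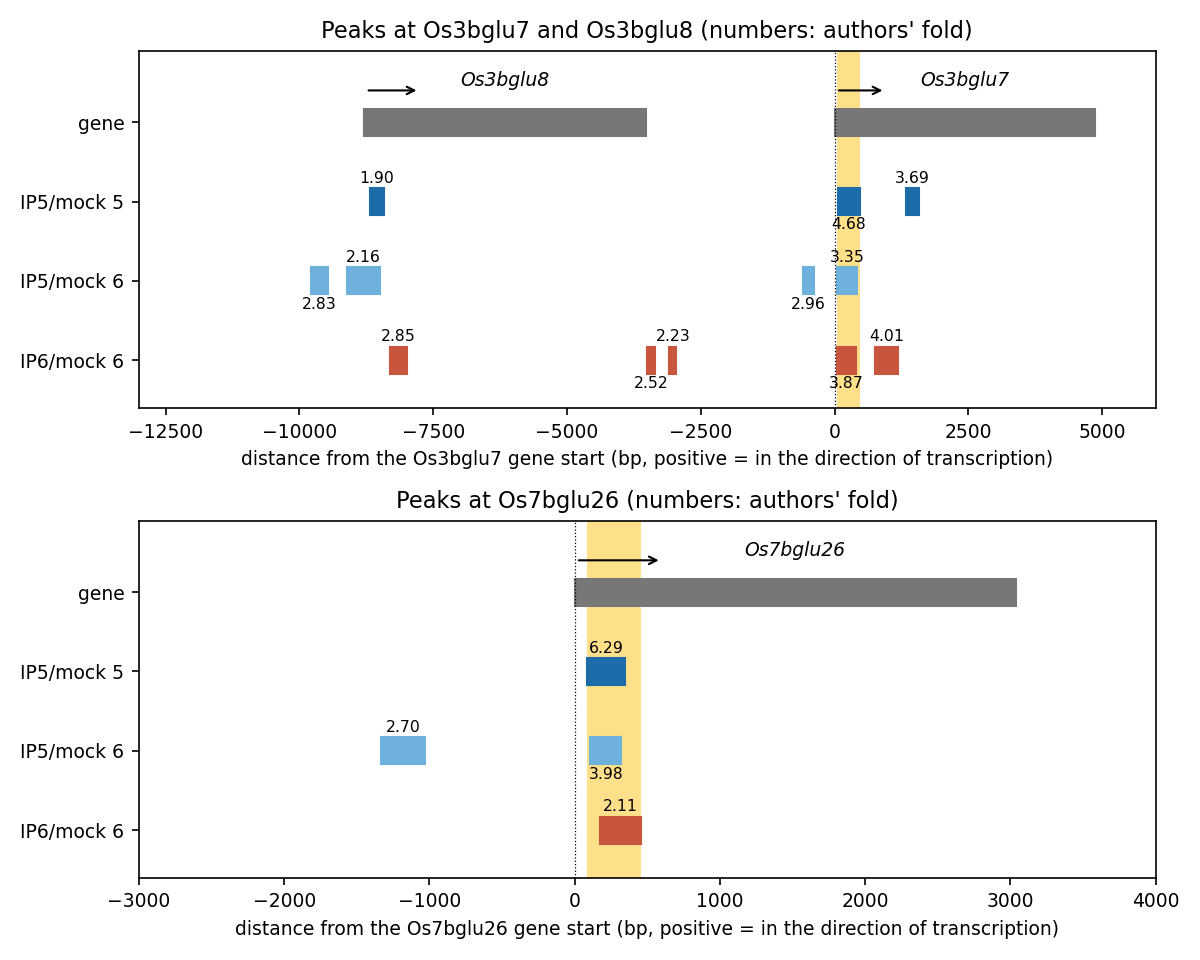
Peaks of the 3 lists (coloured bars, with the authors' fold beside each) within 4 kb of Os3bglu7 and Os3bglu8 (upper panel) and of Os7bglu26 (lower panel), by distance in bp from the start of Os3bglu7 or Os7bglu26. Grey bars are genes, arrows show the direction of transcription and yellow bands the merged regions, which begin 37 and 88 bp inside the starts of Os3bglu7 and Os7bglu26.

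At Os3bglu7 the folds of both replicates were close in size. Each peak carries the authors' fold enrichment of IP over mock from the peak caller, and a q-value, the caller's p adjusted for the number of tests. The peak had a fold of 4.68 in IP5/mock 5 (28244762 to 28245157, q = 1.66e-14). In IP5/mock 6 its fold was 3.35 (28244817 to 28245178, q = 8.4e-10). In IP6/mock 6 it was 3.87 (28244825 to 28245190, q = 2.88e-14). For the pairs without a common library, the IP5/mock 5 fold was 1.21 times the IP6/mock 6 fold. That ratio was lower at 61.8% of the other regions. They include regions with the higher fold in IP6/mock 6, so the share does not rank the size of the difference. Each list held exactly 1 peak in the region, as at Os7bglu26 and at 84.0% of all regions. A stretch of 333 bp, from 28244825 to 28245157, was common to the 3 peaks. Each fold comes from a single pair of libraries and has no replicate error, and the q-values describe reads of those libraries only.

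At Os7bglu26 the replicates were far apart. The IP5/mock 5 peak (27615691 to 27615949) had a fold of 6.29 and a q of 1.48e-23. The IP6/mock 6 peak (27615778 to 27616058) had a fold of 2.11 and a q of 0.00482. IP5/mock 6 (27615711 to 27615925) lay between, with a fold of 3.98 and a q of 1.09e-14. The stretch common to the 3 peaks was 148 bp long, from 27615778 to 27615925.

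The ratio of the IP5/mock 5 fold to that of IP6/mock 6 was 2.98 at Os7bglu26, the fifth highest in the table, with 99.7% of the other 1441 regions below it. The quartiles of that ratio among the other regions were 0.84 and 1.37, around a median of 1.08. In the table as a whole, 57.1% of regions had the higher fold in IP5/mock 5, and both bglu regions were among them. The folds differed with the IP library and with the mock. Over the common mock 6, IP5 gave 1.89 times the fold of IP6 at Os7bglu26, above 95.5% of the other regions, and 0.868 times at Os3bglu7, above 12.3% of them. The quartiles of that ratio among the other regions were 1.01 and 1.46. IP5 gave 1.58 times the fold over mock 5 that it gave over mock 6 at Os7bglu26, and 1.40 times at Os3bglu7. Only 35.8% of all regions had the higher IP5 fold over mock 5. Those ratios at Os7bglu26 and Os3bglu7 lay above 96.8% and 91.5% of other regions. The cause of neither difference was tested.

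For IP5/mock 5 the Os3bglu7 region exceeded 84.2% of the other regions and the Os7bglu26 region 96.8%, against a median fold of 3.31. The shares for IP5/mock 6 were 29.1% and 55.8%, against a median of 3.82. In IP6/mock 6 they were 79.4% and 3.19%, against a median of 3.08. Os3bglu7 was therefore above the table's median in both comparisons that share no library, and Os7bglu26 in 1 of them. These ranks describe peaks of the contrast that chose the regions and were not tested.

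**Figure D2:**
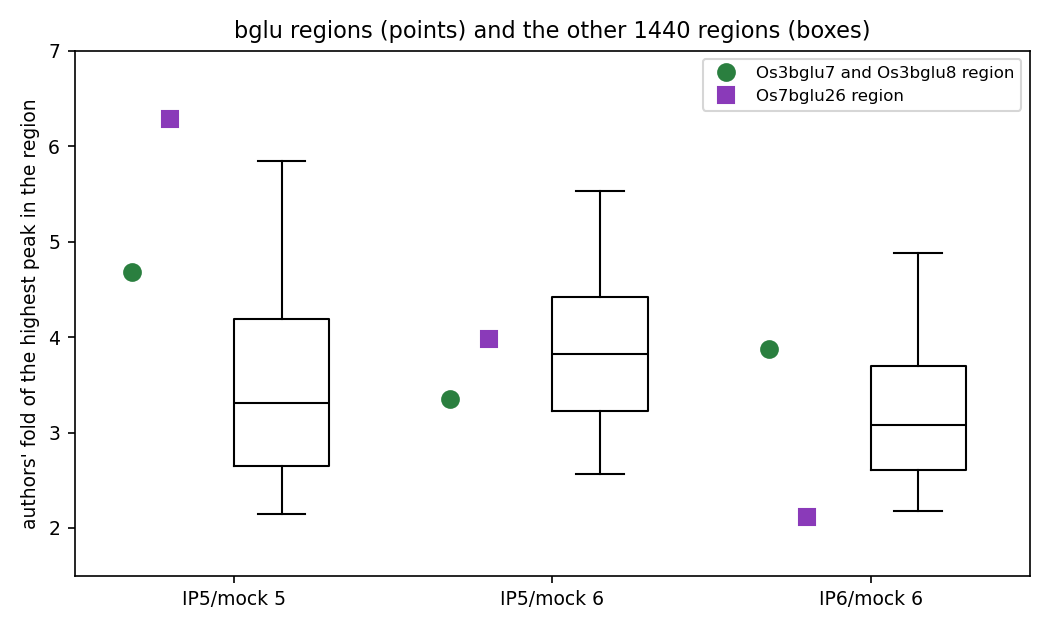
The authors' fold of the highest peak in the Os3bglu7 and Os3bglu8 region (circles) and the Os7bglu26 region (squares), left of boxes for the other regions, in each of the 3 lists. Boxes show quartiles and median, and whiskers leave out the lowest and highest 5 percent. Os7bglu26 goes above the upper whisker in IP5/mock 5 (6.29) and below the lower one in IP6/mock 6 (2.11), while Os3bglu7 stays between 3.35 and 4.68.

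The fold of at least 3 in all 3 lists that 31.4% of the regions reached was met by the Os3bglu7 region and not by that of Os7bglu26. At a q of at most 0.01 in all 3 lists both were kept, as were 97.3% of all regions. Among the peaks the authors list as shared, the smallest fold was 2.00 in each list, and the IP6 fold of 2.11 at Os7bglu26 stood just inside it. Just outside stood a place 5528 bp upstream of the Os3bglu8 start. It had a peak of fold 3.46 in IP5/mock 5 (28259542 to 28259787), 3.59 in IP5/mock 6 and 1.99 in IP6/mock 6. The authors do not list those peaks as shared. That place is farther from Os3bglu8 than the largest distance in the table, 3999 bp. No region is listed for a gene that far away, whatever its fold. The place was picked by hand, outside the 4 kb searched around each gene.

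Beyond the shared region, the start of Os3bglu8 had a peak in every list, but not at the same place. In IP5/mock 5 a peak with a fold of 1.90 and a q of 0.0122 lay 111 to 362 bp inside the start (28253651 to 28253902). In IP5/mock 6 a peak with a fold of 2.16 and a q of 8.58e-05 crossed the start (28253726 to 28254337). Those peaks overlapped by 177 bp. The IP6/mock 6 peak, with a fold of 2.85 and a q of 2.49e-04, lay deeper, 476 to 789 bp inside (28253224 to 28253537). It was separated from the nearest IP5 peaks by 113 bp and 188 bp, so no stretch was shared by both replicates. Of all genes in the table, 46.2% were touched by a peak in each of the 3 lists, as all 3 bglu genes were. For Os3bglu8 that happened without a merged region in the gene.

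Os3bglu7 had further peaks inside the gene that did not recur. IP5/mock 5 had one with a fold of 3.69 at 1340 to 1568 bp from the start (28243659 to 28243887). IP6/mock 6 had one with a fold of 4.01 at 763 to 1176 bp (28244051 to 28244464), higher than its peak in the shared region. They were 163 bp apart. IP5/mock 6 had neither, but had a peak with a fold of 2.96 at 385 bp upstream of the start (28245613 to 28245821). With 2 peaks each, Os3bglu7 belonged to the 13.6% of table genes touched by 2 or more peaks of IP5/mock 5 and to the 18.7% touched by 2 or more of IP6/mock 6.

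In the gap between Os3bglu8 and Os3bglu7, IP6/mock 6 alone had peaks close to the end of Os3bglu8. They had folds of 2.52 and 2.23 and lay 23 bp (28248588 to 28248733) and 442 bp (28248183 to 28248314) downstream of that end. Upstream of Os3bglu8, IP5/mock 6 had a peak with a fold of 2.83 at 675 bp from the start (28254689 to 28255014). Upstream of Os7bglu26, IP5/mock 6 had one with a fold of 2.70 at 1028 bp (27614270 to 27614574). Neither upstream peak had a counterpart within 4 kb of the same gene on that side in the other lists. Both belong to IP5/mock 6, the longest of the 3 lists. Within 4 kb of Os3bglu7 the 3 lists held 2, 2 and 4 peaks, around Os3bglu8 2, 4 and 4, and around Os7bglu26 1, 2 and 1. The whole lists differ in length, with 24169 peaks in IP5/mock 5, 58213 in IP5/mock 6 and 10602 in IP6/mock 6. How many peaks lie within 4 kb of other genes was not determined, so these counts are not read as particular to the bglu genes. Exactly 1 peak per gene and list was among those the authors list as shared, the one in the merged region.

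**Figure D3:**
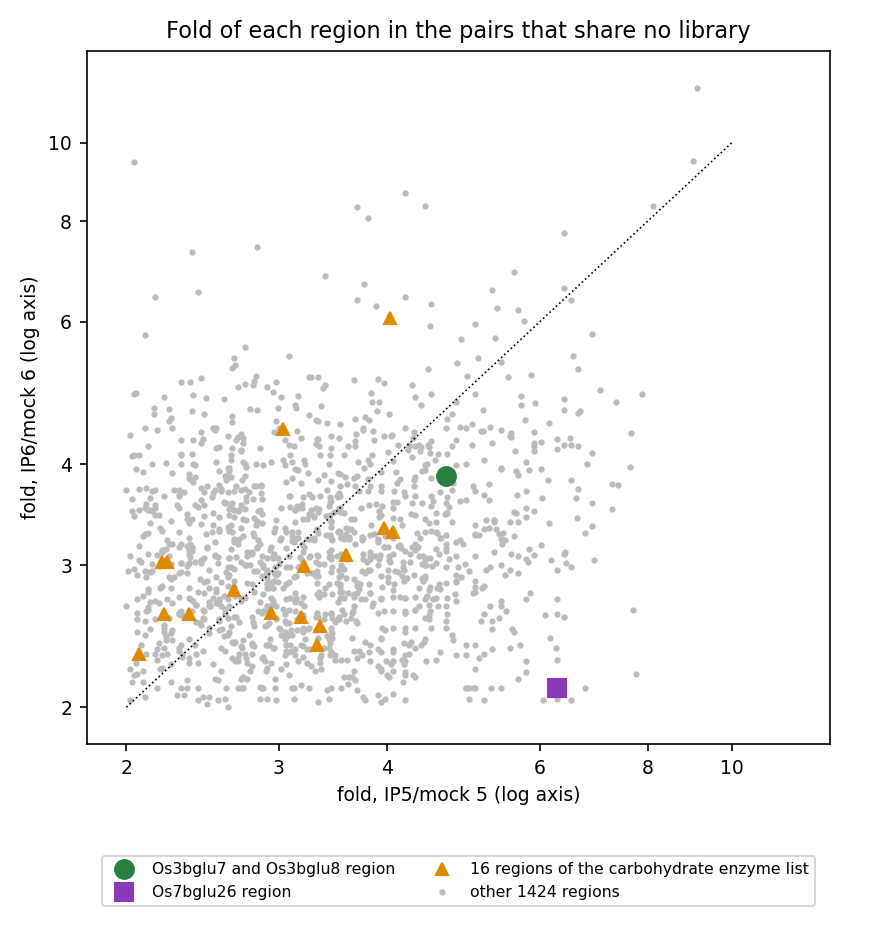
Fold of every region in IP5/mock 5 (horizontal, log axis) and IP6/mock 6 (vertical, log axis), with the bglu regions, the 16 regions of other carbohydrate enzyme genes and the rest; the dotted line marks equal folds. The Os3bglu7 region lies near the line at 4.68 and 3.87, and the Os7bglu26 region far below it at 6.29 and 2.11.

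Other regions with folds most like those of the bglu regions were found by the Euclidean distance of log2 fold over the 3 lists. For the Os3bglu7 region the closest was one that covers the whole of the ERF-named gene Os05g0497300 (chromosome 5, 24442671 to 24445390), with folds of 4.50, 3.33 and 3.85 and a distance of 0.061. Next was a region inside Os07g0682600, with 4.30, 3.25 and 3.76 and a distance of 0.138. For the Os7bglu26 region the closest was a region 1282 bp downstream of Os02g0204400, with 6.28, 4.09 and 2.29 and a distance of 0.128. It was followed by a region inside OsProCP4 (chromosome 10, 19687285 to 19687550), with 5.79, 3.81 and 2.21 and a distance of 0.152. The distance between the 2 bglu regions was 1.00 on that log2 scale. Of the other regions, 1010 were nearer to the Os3bglu7 region than that, and 438 nearer to the Os7bglu26 region.

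Most genes of the family had no region in the table. The RefSeq annotation of another assembly (ASM3414082v1) gives a bglu symbol to 31 genes on 11 chromosomes, and by that symbol 3 of them were in the table, or 9.68%. That share is close to the background. The whole table holds 2589 genes, equal to 8.80% of the 29427 protein-coding genes of that annotation, a comparison that is approximate because the table's genes come from another annotation. The other 28 bglu genes were not in the table. Their positions in the authors' coordinates are not known here, so single peaks near them were not analysed. In the RefSeq order 17 of the 31 stand directly beside another bglu gene. Os3bglu7 and Os3bglu8 are such neighbours, as in the authors' coordinates, while Os7bglu26 is by symbol the only bglu gene on chromosome 7. The third bglu gene on chromosome 3, Os3bglu6, was not in the table.

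In the authors' deposited table of 77 gene ontology (GO) terms, 11 terms list a bglu member. In 8 terms of the authors' deposited table the 3 bglu genes are the only genes counted. In the authors' deposited table these run from beta-mannosidase activity (3 of 3 genes, false discovery rate 0.00104) and beta-L-arabinosidase activity (3 of 4, 0.00386) to beta-gentiobiose beta-glucosidase activity (3 of 7, 0.027). Between them in the authors' deposited table stand the activities on amygdalin, methylumbelliferyl glucoside and esculin (each 3 of 5, 0.00898) and the beta-D-fucosidase and cellobiose glucosidase activities (each 3 of 6, 0.0166). These terms name different sugars and test substrates of the same enzymes, so they repeat 1 set of 3 genes and 2 regions. A ninth such term of the authors' deposited table, a glucan beta-glucosidase activity, counts Os3bglu8 and Os7bglu26 alone (2 of 3, 0.0321). In the authors' deposited table all 3 genes also stand under cytosolic ribosome (6 of 28, 0.0476), where they are 3 of the 6 genes counted. Os3bglu7 is further among the 71 genes under zinc ion binding in the authors' deposited table (0.00464).

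Os3bglu8 enters each of those 9 enzyme terms through a region 3566 bp beyond its end. With the nearest gene only, Os3bglu7 and Os7bglu26 would remain in 8 of them, 2 genes for 2 regions. In the glucan beta-glucosidase term Os7bglu26 alone would remain. No source used here names the tool or the gene background behind the authors' rates, and the rates were not recomputed.

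Other carbohydrate-active enzyme genes were searched by symbol, in a list of glycoside hydrolase families and of the UDP-glycosyltransferases that form glucosides. In all, 13 genes with 16 regions were found. Xyloglucan endotransglucosylase/hydrolases, which cut and rejoin the xyloglucan of the cell wall, had 6 genes with 7 regions. Beta-galactosidases had 2 genes with 3 regions, and invertases, which split sucrose, 2 genes with 2 regions. There was 1 gene each for the beta-1,3-glucanases, the amylases and the UDP-glycosyltransferases. Endo-beta-1,4-glucanases, chitinases, endo-beta-mannanases and the group of beta-xylosidases and exoglucanases had 0 by the symbols searched, which did not cover 4 endoglucanase genes of family GH9 that the table does hold. Another 4 genes matched a symbol but belong to other proteins or could not be assigned, and were left out. How many genes each family has in the rice annotation was not determined, so these counts cannot be read against the 8.80% of all genes in the table, and no excess is read from them.

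The folds of these 16 regions were near those of all regions. Those in IP5/mock 5 ran from 2.07 to 4.06 with a median of 3.11, against 3.31 for all 1442 regions. In IP5/mock 6 they ran from 2.76 to 4.99 with a median of 3.93, against 3.82. Both bglu regions lay inside that range, Os3bglu7 at 3.35 and Os7bglu26 at 3.98. In IP6/mock 6 the folds ran from 2.33 to 6.06 with a median of 2.89, against 3.08. Both bglu regions exceeded these 16 in IP5/mock 5, but the GH9 gene OsGH9B7, not among them and picked after its values were seen, had a fold of 5.25, above the 4.68 of Os3bglu7. In IP6/mock 6 Os7bglu26 lay below the 16. Of the 16 regions 8 had the higher fold in IP5/mock 5 than in IP6/mock 6, against 57.1% of all regions, and 5 reached a fold of 3 in all 3 lists, against 31.4%. With 16 regions no difference from those shares is read.

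Placement was varied in this group. OsXTH27 had a region beginning 48 bp inside its start, with folds of 2.66, 4.87 and 2.79 in IP5/mock 5, IP5/mock 6 and IP6/mock 6, and OsXTH23 one beginning 63 bp inside, with 2.21, 3.20 and 2.61. Those placements are like that of Os3bglu7 and Os7bglu26. OsXTH23 also had another region deeper inside the gene, from 1109 bp after its start (2.07, 4.05 and 2.33). OsXTH3 had regions across both its start (3.97, 3.78 and 3.33) and its end (3.03, 4.21 and 4.42). OsXTH6 and OsXTH9 shared 1 region (3.59, 4.99 and 3.09), 3036 bp upstream of OsXTH6 and 3701 bp downstream of OsXTH9. Os3bglu7 and Os3bglu8 also share 1 region, but that one lies inside Os3bglu7 and is distant only from Os3bglu8. The highest IP6 fold was 6.06, across the end of OsPR2, also listed as Gns1, a glucanase gene. OsBgal1, a beta-galactosidase gene, had a region from 123 bp inside its start (2.36, 4.07 and 2.61) and another 2030 bp upstream (4.06, 3.77 and 3.30).

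**Figure D4:**
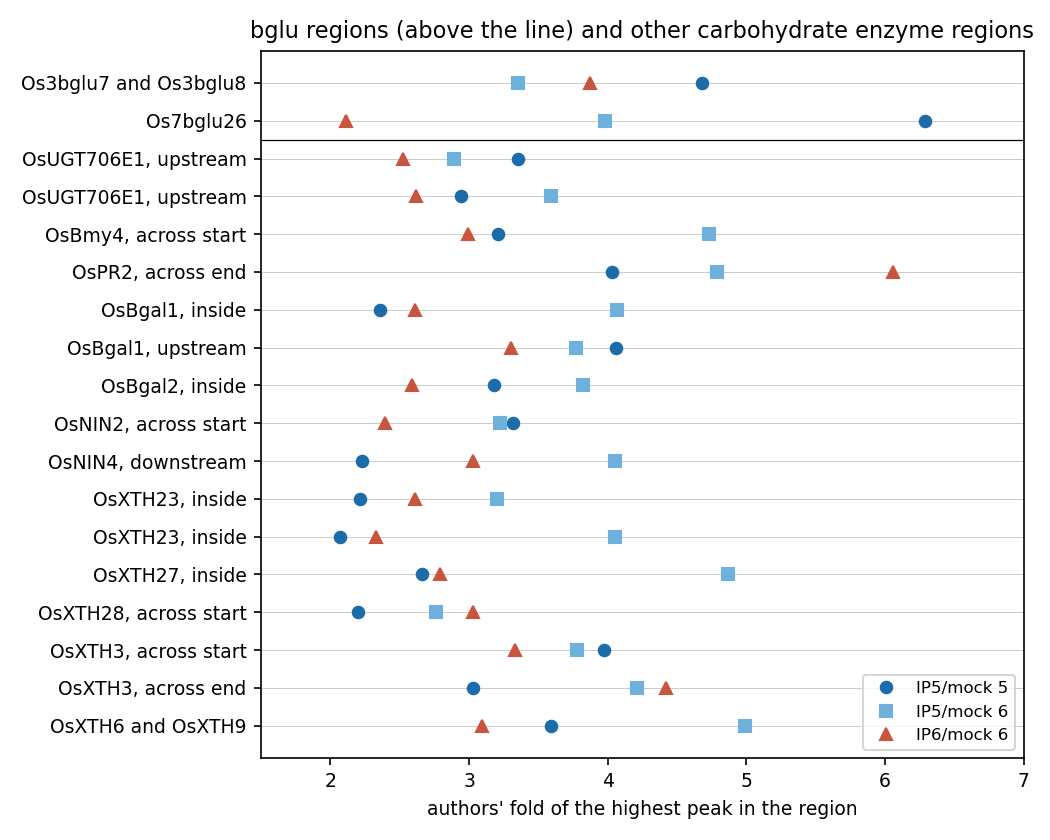
The authors' fold of the highest peak in each of the 3 lists (marker shapes) for the bglu regions, above the line, and for the 16 regions of other carbohydrate enzyme genes with their position relative to the gene. In IP5/mock 5 the bglu regions reach 4.68 and 6.29 and the 16 plotted regions no more than 4.06. The OsGH9B7 region, at 5.25, is not plotted. In IP5/mock 6 both bglu regions lie within the range of the 16.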

How the data were processed

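OsMADS2 ChIP and IgG mock libraries, 2 of each, were described by the authors' deposited tables. Tools named in the submitters' processing notes are MACS2, fastp, Bowtie2, SAMtools and deepTools; no version is given. The authors deposited read counts per library. Per the file headers, each peak list sets 1 IP over 1 mock and gives a fold enrichment and −log10 values of p and q, and peaks overlapping in the 3 lists were merged and assigned to nearby genes. The GO table holds −log10 false discovery rates deposited by the authors. These values were taken as deposited.

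A region's fold is that of its highest peak, with overlap of 1 bp or more. In every list each bglu region held 1 peak, as 84.0% of all regions did throughout. Distances are bases between features. Overlap counting was tested on simulated peaks. Python 3.11.15, numpy 2.4.6, pandas 2.3.3 and matplotlib 3.10.9 were used.

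The bglu genes, their neighbours, the peaks within 4 kb, the enzyme list, the 2 regions most alike in fold and all GO terms listing a member were named by rule. Members and lists were chosen with earlier results of these data known. The 100 and 3500 bp limits were set after the positions were seen. The place 5528 bp upstream of Os3bglu8 was picked by hand and not by rule. No significance test was made, since the rule used the only contrast available. Sequences of the regions were not used here.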

Additional observations from a re-analysis of the deposited data

How the results depend on the processing

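With only one replicate's list required (without replicate 5 or without replicate 6) the count stayed at 3 bglu genes and 2 regions, but both regions were already chosen on all lists. It was also 3 and 2 with a q of at most 0.01 or with at least 50% of each peak inside the region. The 50% setting could not change it, since both bglu regions wholly contain their peaks. With a fold of at least 3 in all lists 1 region and 2 genes remained, those at Os3bglu7. Limits of 2 kb, or the nearest gene only, left 2 genes each and dropped Os3bglu8. When IP5 was set against mock 6 the fold was 3.35 at Os3bglu7 (4.68 over mock 5) and 3.98 at Os7bglu26 (6.29 over mock 5), and the cause was not tested. Using the mean of all peaks in a region could change no bglu fold, since each bglu region held 1 peak per list. It moved each share of other regions below by under 5 percentage points. The list of other enzyme genes fell to 10 of 13 at 2 kb. A planned search by gene description was not run, because the tables hold symbols only. No paired analysis was possible because no result comes from a test. Depth per place is not given, so intervals on the folds could not be computed.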

Other observations

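Endoglucanase genes of family GH9, which act on beta-1,4-linked glucans of the cell wall, were listed under symbols that the search above did not cover, and were picked after their rows were seen. In all, 4 such genes had 5 regions. OsGH9B7 had one inside the gene, from 1778 bp after its start, and its folds were 5.25 in IP5/mock 5, 5.42 in IP5/mock 6 and 3.33 in IP6/mock 6. OsGH9B16 had one across its end, with 3.25, 6.14 and 4.60. OsGH9B1 had one across its start (2.60, 4.34 and 2.65) and another from 2982 bp inside (3.01, 3.53 and 3.22). OsGH9B11 had one across its start (2.76, 3.29 and 3.11).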
